A study of Mus musculus with 2 samples.

Results

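The genes described here are the Trem2-Apoe genes of disease-associated microglia (DAM): Apoe, Trem2, Tyrobp, Cst7, Lpl, Spp1, Itgax, Clec7a, Axl and Cd9. They were taken by symbol from the deposited tables, which hold 32285 genes, and 9 of the 10 were measured; Clec7a was not analysed here. The study compared EYFP+ cells sorted from the DG of WT mice (NestinCreERT2;VEGFWT/WT;ROSA-STOP-EYFP) and iKD mice, in which the Vegfa alleles are floxed. Both genotypes carried the Cre, which is active after TAM in cells that express it from the Nestin promoter, both carried the EYFP reporter, and both received TAM at 180 mg/kg/d for 5 d, so the TAM and Cre effects are shared by the controls. Mice were 7 to 10 wk old at the start, cells were sorted 21 d after TAM, and 5 littermates were pooled into 1 library of each genotype. There is therefore no replicate error for the genotype, no test between genotypes was made, and the intervals below cover counting error only.

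DAM are microglia that surround amyloid plaques, dying neurons and myelin debris, and similar cells occur during development. The lipid receptor TREM2 signals through its adaptor TYROBP (DAP12), and APOE, a lipid carrier, is one of its ligands. In the usual account, microglia first lower homeostatic genes and raise Apoe, Tyrobp and B2m without need of TREM2, and then, with TREM2, add phagocytic and lipid genes such as Cst7, Lpl, Spp1, Itgax and Axl.

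The tables divide the cells into 12 clusters, and the names used here (qNSC1, qNSC2, aNSC, NSPCs, IPC1, IPC2, eNB, NB and 4 others) are the authors'. The cells in them carried the markers of microglia. Over the 8 clusters from qNSC1 to NB (5283 WT and 5009 iKD cells), 12 homeostatic microglia genes, among them P2ry12, Tmem119 and Cx3cr1, were detected, at the median over the list, in 99.8% of WT and 99.7% of iKD cells. For 7 neural stem cell genes, among them Nes, Sox2 and Hopx, that median was 0.284% and 0.260%. The cluster named Astrocyte (4 WT and 130 iKD cells) instead carried genes of the choroid plexus, at a summed level of 658 counts per 10,000 UMIs in WT and 1090 in iKD over 7 genes, and it serves below as the cell type that should lack the microglial genes. Vegfa had 111 UMIs (95% interval, 91.3 to 134) over all WT cells and 62 (47.5 to 79.5) over all iKD cells, and reads from the 3' end need not cover the floxed exon, so these counts do not check the labels.

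The libraries differed in ways that touch the genes below. Median depth was 8051 UMIs per cell in WT and 7080 in iKD. Cells scored as female by Xist made up 47.0% of WT and 65.4% of iKD cells of the 6 clusters from qNSC1 to IPC2, and Xist met a Y-linked UMI in 2.05% and 1.08% of these cells. Ttr, a choroid plexus gene, had a UMI in 9.60% of WT and 99.8% of iKD cells of the 8 clusters, and 9 barcodes occurred in both libraries. Of 8 genes of the dissociation response, 6 reached the minimum level used for calls below, and 1 of the 6 was lower in iKD over the 6 clusters, with a median log2 ratio of 0.13. Fos was at 17.4 in WT and 19.9 in iKD (0.20) and Jun at 37.9 and 41.6 (0.13), and in male cells Fos (0.29) and Atf3 (0.26) passed the limit for a call. Because cells were sorted, clustered and pooled, a level averages over the mice of a pool.

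The stretches of DNA before 4 of the genes are given because these genes stand for the 3 patterns described below: a sensor present in nearly every cell (Trem2), a lipid carrier very high in a few cells (Apoe), and a pair of genes with their highest level in 1 cluster (Cst7 and Itgax). Each holds the 250 bases before the start site, 5' to 3' on the strand of the gene, from RefSeq on GRCm38.p6. Capitals mark GAGGAA, the core that PU.1, the lineage factor of macrophages and microglia, recognizes, or TGACTCA, the AP-1 site, on either strand.
Trem2, chr17:48346151-48346400, plus strand: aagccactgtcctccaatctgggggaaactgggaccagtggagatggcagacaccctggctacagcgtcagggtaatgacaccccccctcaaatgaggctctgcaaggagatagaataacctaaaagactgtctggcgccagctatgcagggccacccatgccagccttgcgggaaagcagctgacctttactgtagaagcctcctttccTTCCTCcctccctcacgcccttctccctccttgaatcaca
Apoe, chr7:19699189-19699438, minus strand: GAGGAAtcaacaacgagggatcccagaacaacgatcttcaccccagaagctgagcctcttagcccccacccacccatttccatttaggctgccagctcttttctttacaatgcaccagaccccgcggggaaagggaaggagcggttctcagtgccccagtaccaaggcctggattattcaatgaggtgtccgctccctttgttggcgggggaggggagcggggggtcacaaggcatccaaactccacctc
Cst7, chr2:150570165-150570414, plus strand: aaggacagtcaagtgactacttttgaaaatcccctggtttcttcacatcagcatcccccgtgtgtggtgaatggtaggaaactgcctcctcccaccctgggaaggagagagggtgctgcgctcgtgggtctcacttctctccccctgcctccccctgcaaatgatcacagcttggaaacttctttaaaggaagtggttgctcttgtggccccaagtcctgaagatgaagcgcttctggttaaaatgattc
Itgax, chr7:128129300-128129549, plus strand: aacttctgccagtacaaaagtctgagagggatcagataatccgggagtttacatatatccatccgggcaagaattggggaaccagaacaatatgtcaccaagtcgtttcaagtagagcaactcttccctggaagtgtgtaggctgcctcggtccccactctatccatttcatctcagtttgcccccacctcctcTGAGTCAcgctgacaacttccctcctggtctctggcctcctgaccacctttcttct
GAGGAA was found before 4 of the 7 measured genes with an entry (Apoe, Trem2, Spp1 and Axl), against 25.9% of 27025 genes. TGACTCA was found before Itgax alone of the 7, against 5.16% of genes, and CACGTG, the E-box of the MITF and TFE factors that control lysosomal genes, before 0 of 7, against 6.86%. Where RefSeq lists several start sites, a gene counted if any of them had the letters. These are matches of letters and not evidence of binding.

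The sensor pair was present throughout. Trem2 had a UMI in 97.2% to 100% of the cells of every one of the 8 clusters in both libraries, and Tyrobp in 98.5% to 100%. A level here is counts per 10,000 UMIs, averaged over cells. Trem2 levels lay between 12.9 and 21.1, a narrow range: in WT they were 21.1 in NSPCs, 20.9 in qNSC1, 18.4 in NB, 17.2 in aNSC, 17.0 in IPC1, 16.8 in IPC2, 15.9 in eNB and 15.8 in qNSC2. In iKD the order began with qNSC1 at 18.5 and NSPCs at 18.3, neighbours that do not differ beyond their counting error, and ended with aNSC at 12.9. Tyrobp had the same leading clusters, with 22.3 in NSPCs and 22.2 in qNSC1 in WT and 22.5 and 22.2 in iKD, and its lowest levels were 16.6 in WT (IPC1) and 15.8 in iKD (eNB). Both genes were far lower in the choroid plexus cells of the iKD library, at 3.20 for Trem2 (38.5% of cells) and 4.17 for Tyrobp (46.9%), at a median depth of 7902 UMIs. In IN2, a cluster of low depth (medians of 3309 and 2775 UMIs), Trem2 was at 4.25 in WT and 3.70 in iKD.

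**Figure D1:**
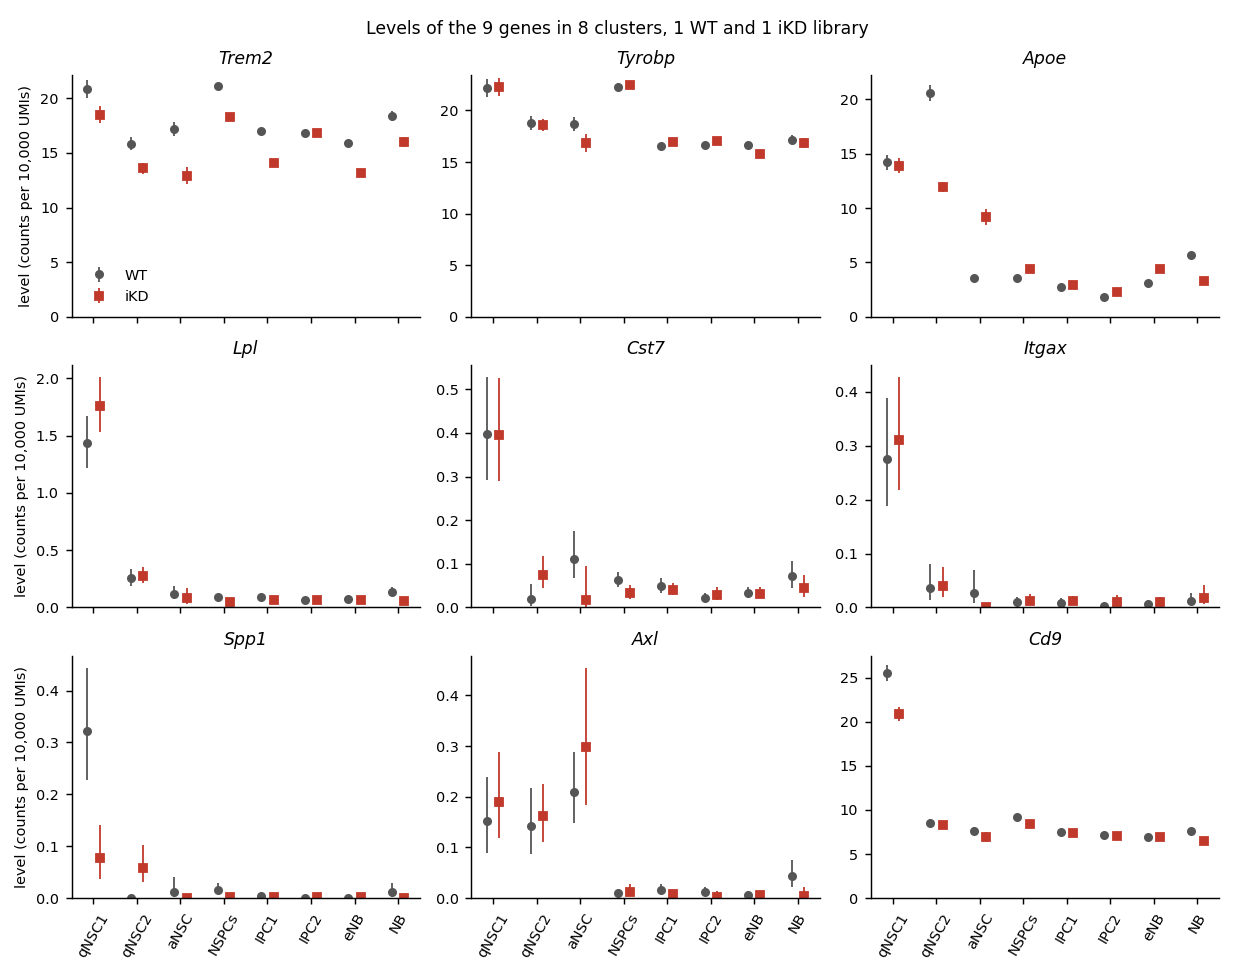
Level of each measured gene (y axis, mean counts per 10,000 UMIs, linear from 0) in 8 clusters (x axis) of the WT library (grey circles) and the iKD library (red squares), with bars for exact 95% Poisson intervals of the summed UMIs. Trem2 and Tyrobp stay between 12.9 and 22.5 in every cluster, while Cst7, Lpl, Itgax and Cd9 are highest in qNSC1 in both libraries.

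The genes that mark the later DAM state were concentrated in qNSC1, a cluster of 134 WT and 158 iKD cells (median depths of 8607.5 and 7556 UMIs). Lpl, the lipase that frees fatty acids from lipoproteins, was at 1.43 in WT and 1.76 in iKD cells of qNSC1, against 0.0921 and 0.0733 over the other 7 clusters. Cst7, which encodes the protease inhibitor cystatin F, was at 0.397 and 0.395 against 0.0458 and 0.0373. Itgax, the integrin CD11c, was at 0.275 and 0.310 against 0.00920 and 0.0136. All 3 genes were thus many times higher in qNSC1 in both libraries, although most of their molecules lay in the other 7 clusters: Cst7 had 47 UMIs inside and 189 outside qNSC1 in WT, and 46 and 135 in iKD, and Itgax had 32 and 40, and 37 and 49. Inside the cluster the counting intervals of WT and iKD overlapped for each.

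The tetraspanin Cd9 differed in kind, since nearly every cell had it: its level was 25.5 in WT and 20.8 in iKD cells of qNSC1, against 7.78 and 7.36 over the other 7 clusters, where no cluster passed 9.24. Axl, a receptor tyrosine kinase that takes up apoptotic cells, was at 0.152 and 0.190 in qNSC1 against 0.0263 and 0.0233. Spp1, which encodes osteopontin, rested on few molecules: 37 UMIs in 12 WT cells and 10 UMIs in 6 iKD cells of qNSC1, or levels of 0.322 and 0.0767 against 0.00598 and 0.00525 elsewhere. Apoe was at 14.2 and 13.9 against 3.77 and 4.17. On the log2 scale with a pseudocount of 0.01, qNSC1 stood above the other 7 clusters by 3.82 in WT and 4.41 in iKD for Lpl, by 3.89 and 3.77 for Itgax, by 2.87 and 3.10 for Cst7, by 4.38 and 2.51 for Spp1, by 2.15 and 2.59 for Axl, by 1.91 and 1.73 for Apoe and by 1.71 and 1.5004 for Cd9. Trem2 (0.23 and 0.28) and Tyrobp (0.29 and 0.32) were close to level. The authors' clusters were built from all genes, so these are descriptions with no test. By the limit of 1 on this scale in both libraries, 7 of the 9 genes were higher in qNSC1, where 1.82% of the 14918 genes with at least 20 UMIs were.

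As shares of cells, Lpl had a UMI in 36.6% of WT and 34.2% of iKD cells of qNSC1, Cst7 in 20.9% of both, Itgax in 18.7% and 16.5%, and Axl in 11.9% and 10.1%. In the other 7 clusters the shares were 5.496% and 4.08% for Lpl, 3.20% and 2.35% for Cst7, 0.777% and 0.928% for Itgax, and 1.51% and 1.18% for Axl. Among the 130 choroid plexus cells of the iKD library, the share was 3.08% for Lpl and 1.54% for Cst7, and 0 for Spp1, Itgax and Axl, which allows up to 2.31% by 3 cells. Pooled over the other 7 clusters, the shares lay within the intervals of this background for Lpl (0.845 to 7.69) and Cst7 (0.187 to 5.45) and under its limit for Itgax and Axl, so the pooled shares are not read as expression. Single clusters lay above it. Lpl was found in 13.8% of WT and 13.4% of iKD cells of qNSC2, and Axl in 9.23% and 8.14% of qNSC2 and 9.14% and 12.96% of aNSC cells. Cst7 reached 7.61% in WT aNSC, against 0.926% in iKD, and Itgax 3.08% and 2.61% in qNSC2. Thinned to 4500 UMIs per cell, the shares in qNSC1 were 29.3% and 28.9% for Lpl and 12.03% and 11.8% for Cst7.

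Other genes of the DAM program, 24 from a list beyond these members, showed the same placement. All 22 of them with at least 20 UMIs were higher in qNSC1 than in the other 7 clusters in both libraries. By at least 1 on the log2 scale, 13 of them were higher, where 1.82% of 14918 genes were. Their median log2 ratios were 1.20 in WT and 1.19 in iKD over the 22. Lgals3, the lectin galectin-3, was at 0.714 in WT and 0.536 in iKD cells of qNSC1, against 0.00581 and 0.00618. Csf1, a microglial growth factor, was at 3.01 and 1.86 against 0.174 and 0.193, and the lysosomal tetraspanin Cd63 at 14.3 and 12.1 against 2.31 and 2.24. Igf1, among the 13, rested on 4 and 5 UMIs in qNSC1. The 12 homeostatic genes lay the other way: 11 were lower in qNSC1 in both libraries and 0 of 12 passed the limit. P2ry12 was at 15.7 and 16.8 against 30.9 and 30.8. This was not particular to qNSC1, since all 12 were lower in both libraries in qNSC2, with Fcrls past the limit, and 10 were in aNSC. None of the 17 genes of TREM2 signalling passed the limit in either direction in qNSC1. Of these, 12 were lower there in both libraries, among them the kinase Syk, by −0.53 and −0.80. The share of all genes higher, or lower, by any amount in both libraries was not counted. The counts of genes on 1 side are therefore descriptions only. Ttr was at 0.125 in WT and 9.82 in iKD cells of qNSC1, values within the range of the other 7 clusters of each library.

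Single cells rarely had several of these genes at once. After thinning, a UMI of at least 1 of Cst7, Lpl, Spp1, Itgax and Axl was found in 50.4% of WT cells of qNSC1 (41.6 to 59.2) and 44.1% of iKD cells (36.0 to 52.4), against 6.34% and 5.67% in the other 7 clusters. At least 2 were found in 12.03% and 13.2% of qNSC1 cells, against 0.238% and 0.303% elsewhere. At least 3 were found in 8 of 5184 WT cells and 7 of 4769 iKD cells over the 8 clusters, and 11 of these 15 cells were in qNSC1 (6 of 133 WT and 5 of 152 iKD cells). The 2 WT cells outside qNSC1 were in aNSC and the 2 iKD cells in qNSC2.

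**Figure D2:**
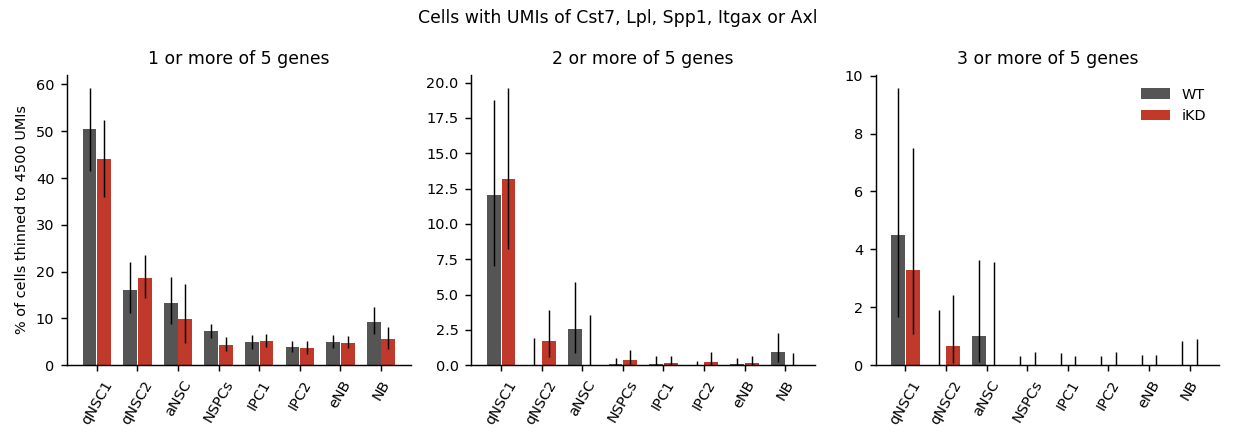
Percent of cells thinned to 4500 UMIs (y axis, from 0, with its own range in each panel) that had a UMI of 1 or more, 2 or more, or 3 or more of Cst7, Lpl, Spp1, Itgax and Axl, by cluster (x axis) for WT (grey) and iKD (red), with exact 95% binomial intervals. In qNSC1 50.4% of WT and 44.1% of iKD cells had at least 1 of the genes, and in the 5 clusters from NSPCs to NB no cell had 3.

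Co-detection of pairs of genes was counted over the 8 clusters and within qNSC1. Lpl and Itgax were found together in 8 WT cells where 1.495 would be met if the genes fell independently (ratio 5.35, 2.31 to 10.5), and in 9 iKD cells against 1.59 (5.67, 2.59 to 10.8). Within qNSC1 the same pair was found in 7 WT cells against 4.69 (1.49, 0.600 to 3.07) and 7 iKD cells against 4.05 (1.73, 0.694 to 3.56), with both intervals including 1. Cst7 and Lpl gave 0.64 in WT and 1.15 in iKD within qNSC1, and Cst7 and Itgax were found together in 0 WT cells against 1.92 and in 4 iKD cells against 1.66. Spp1 and Itgax were found together in 4 WT cells of qNSC1 against 1.08 (3.69, 1.007 to 9.46) and in 0 iKD cells against 0.184. Among all pairs of the 9 genes in both libraries, this WT interval was the only 1 within qNSC1 that excluded 1. With so many pairs counted, a single such interval is not read as a result. For this pair and the others, such counts could not show whether the genes mark the same cells within the cluster. Trem2 and Tyrobp, found in nearly all cells, had a ratio of 1.0 in both libraries.

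Counted over all UMIs of qNSC1 cells, those with 2 or more of the 5 genes were 34 in WT and 35 in iKD, and their other genes differed from those of cells with none (51 and 69 cells). Cd9 was at 30.0 in WT and 25.4 in iKD against 22.2 and 19.4, the summed level of the 24 other DAM genes at 293 and 270 against 226 and 211, and that of the 12 homeostatic genes at 214 and 217 against 248 and 243. Trem2 was at 20.7 in both kinds of WT cell, and at 19.2 and 18.5 in iKD. Median depth was 9246 UMIs in WT and 8176 in iKD cells with 2 or more genes, against 8041 and 7465 in those with none. The summed level of 8 dissociation response genes was also lower, at 67.9 and 60.5 against 80.2 and 85.0. The part of depth and of this response in the result was not tested.

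Apoe was spread over clusters differently from the other genes. In WT its highest level was in qNSC2 (195 WT and 307 iKD cells), at 20.6, ahead of qNSC1 at 14.2 and NB at 5.71, and the lowest was 1.77 in IPC2. In iKD it was 13.9 in qNSC1, 11.9 in qNSC2 and 9.13 in aNSC, and the lowest was 2.27, again in IPC2. By the limit of 1 in both libraries, 3 of the 9 genes were higher in qNSC2 than in the other 7 clusters (Apoe, Lpl and Axl), where 0.697% of the 14918 genes were. Lpl was at 0.253 in WT and 0.278 in iKD there, in 13.8% and 13.4% of cells, and Axl at 0.142 and 0.161. Axl had its highest level in aNSC (197 WT and 108 iKD cells), at 0.210 and 0.298, the only 1 of the 9 genes past the limit in that cluster. The share of all genes past the limit in aNSC was not counted. The interferon-induced Ifit3 was at 3.804 and 2.85 in aNSC and between 0.0154 and 0.0424 in the other 7 clusters.

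The Apoe averages rested on a small number of cells. The median cell of the 8 clusters had 0 Apoe counts in both libraries, the 90th percentile was 8.95 in WT and 11.1 in iKD, and the highest cells held 638 and 390 per 10,000 UMIs. The top 10% of cells held 73.3% of the WT and 69.5% of the iKD total. Cells with at least 50 counts per 10,000 numbered 54 in WT (1.02%) and 68 in iKD (1.36%). The cut is a point in a continuous range, since 51 cells lay between 40 and 50 and 32 between 50 and 60. Because counts within such cells are not spread as single molecules over cells, the counting intervals of Apoe are too narrow.

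**Figure D3:**
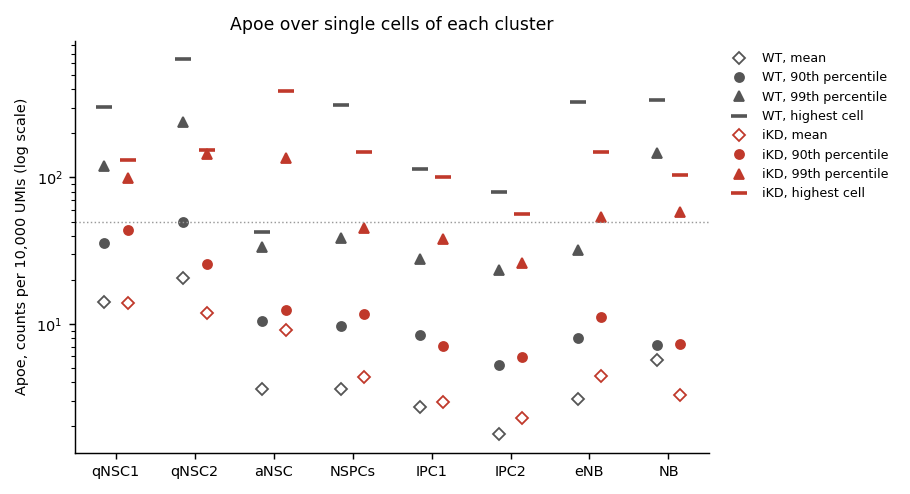
Apoe over the single cells of each cluster (y axis, counts per 10,000 UMIs, log scale) for WT (grey) and iKD (red), as the mean, the 90th and 99th percentiles and the highest cell, with a dotted line at 50. The highest cell, 638 in WT and 390 in iKD, lies far above the means, which run from 1.77 to 20.6.

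The 122 cells at or above 50, from both libraries, kept Trem2 (18.9 against 16.6 in the 10170 other cells) and Tyrobp (21.6 against 18.1). A UMI of Axl was found in 21.3% of them against 1.39% and of Lpl in 22.1% against 5.48%. Cst7 was found in 9.02% against 3.2% and Itgax in 8.20% against 1.24%. Of the 122 cells, 39 were in qNSC2 and 23 in qNSC1, clusters where Axl and Lpl were also more frequent. The part of the cluster in these differences was not tested. Spp1 had 0 UMIs in these 122 cells and a UMI in only 0.354% of the others, so this is not read as an absence. Lyz2, the lysozyme of macrophages, was at 7.35 against 0.941, and the antigen presentation genes Cd74 and H2-Aa were at 8.14 against 0.166 and 2.91 against 0.00618. A few cells carried the last pair: Cd74 had a UMI in 32.0% of the 122 cells and H2-Aa in 5.74%, both medians were 0, and 372 of the 501 Cd74 UMIs and 130 of the 168 H2-Aa UMIs were in 20 WT cells of qNSC2. By library, Cd74 was at 14.6 in WT and 3.03 in iKD, and H2-Aa at 4.97 and 1.28. The homeostatic P2ry12 was at 17.6 against 30.6 and Tmem119 at 7.60 against 12.7. Of the border macrophage genes, Mrc1 had a UMI in 11.5% of these cells against 3.33%. Stab1, the most abundant of them, went the other way, in 58.2% against 71.6%. Pf4, Cd163 and Ms4a7 had 1 cell each and F13a1 had 3 UMIs, while Lyve1 and Cbr2 were not counted in these cells. The part of the border macrophage genes in the Apoe level was not tested. In qNSC2, 20 WT cells (10.3%) and 19 iKD cells (6.19%) were at or above 50. Without the cells of both libraries the Apoe level there was 7.12 in WT and 5.62 in iKD, against 20.6 and 11.9 with them. In aNSC 4 iKD cells and 0 WT cells were at or above 50. Without them the levels were 3.58 in WT and 3.30 in iKD, against 3.58 and 9.13.

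Between genotypes, the levels over the 6 clusters that the study compared (3752 WT and 3412 iKD cells) were close for most of the genes. Trem2 was at 18.3 in WT and 15.97 in iKD, with log2 iKD over WT at −0.20 (−0.22 to −0.18), and Tyrobp at 18.8 in both, with a ratio of −0.0025 (−0.020 to 0.015). Apoe was at 4.09 and 4.67 (0.19, 0.16 to 0.23) and Cd9 at 8.67 and 8.25 (−0.07, −0.10 to −0.05). These 4 genes reached a level of 0.5, the minimum for a call. None of the 4 passed a ratio of 0.25 with its interval on 1 side of 0. Apoe did so at 0.26 without the 0.879% of cells with 2 or more UMIs of border macrophage markers other than Stab1, a setting chosen after seeing the data, and at 0.36 when Stab1 was kept among the markers, which removed 41.8% of cells. The share of all genes called was not counted without those cells. With all cells kept, 1.86% of 3863 genes were lower by this limit and 0.751% higher. Of the 4, 3 were below 0, beside 45.1% of all genes, and the median ratio was 0.0095 over those genes.

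The 5 less abundant genes had intervals that included 0: Lpl 0.1402 in WT and 0.157 in iKD (0.16, −0.04 to 0.36), Cst7 0.0589 and 0.0546 (−0.09, −0.42 to 0.23), Itgax 0.0191 and 0.0279 (0.38, −0.13 to 0.90), Axl 0.0344 and 0.0393 (0.15, −0.27 to 0.56) and Spp1 0.0180 and 0.0102 (−0.47, −1.23 to 0.24). At this depth a difference in these genes smaller than their intervals was not detectable. Inside qNSC1, Spp1 was lower in iKD by −1.94 (−3.11 to −0.90), on 37 against 10 UMIs, and Cd9 by −0.29. The Spp1 UMIs lay in few cells of each library, and some of these cells held more than a single UMI. As for Apoe, the counting interval of Spp1 is therefore too narrow, and its difference is not read as an effect of genotype. The share of cells with 3 or more of the 5 genes differed by −0.0075 percentage points over the 8 clusters.

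**Figure D4:**
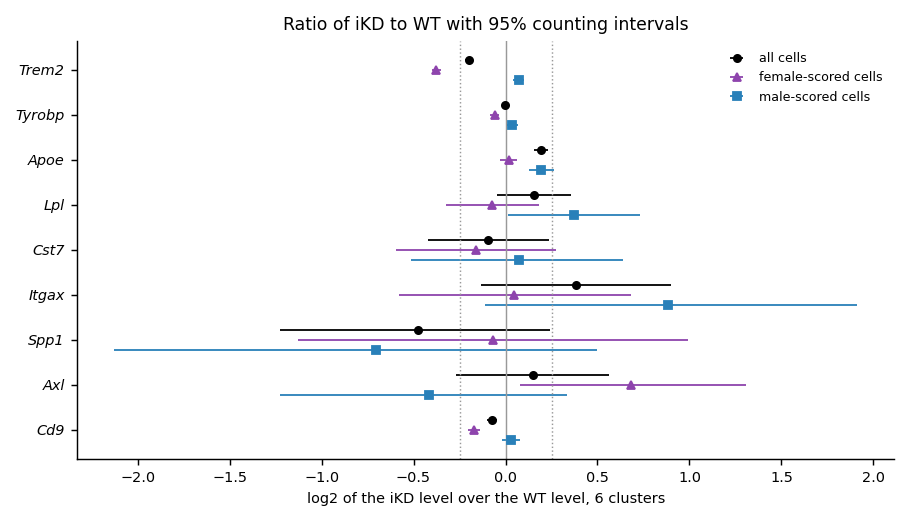
Log2 ratio of levels, iKD over WT, with a pseudocount of 0.01 (x axis) for the 9 genes over 6 clusters, in all cells (black circles), female-scored cells (purple triangles) and male-scored cells (blue squares), with 95% counting intervals and dotted lines at −0.25 and 0.25. Trem2 lies at −0.20 in all cells, −0.38 in female and 0.07 in male cells, and the intervals of Itgax, Spp1 and Axl are wide.

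Within clusters, Trem2 was lower in iKD in 8 of 8 clusters, with the interval below 0 in 7, from −0.41 in aNSC to −0.0010 in IPC2. These ratios were not adjusted for sex, and the share of female-scored cells differed between the libraries within clusters. It was 19.3% in WT and 88.9% in iKD cells of aNSC, and 0.769% and 14.6% in IPC2. Cd9 was below 0 in 8 of 8, with the interval below 0 in 3, and Tyrobp was below 0 in 4 and above 0 in 4. Apoe was above 0 in 5 clusters and below 0 in 3, from 1.35 in aNSC to −0.81 in NB. The difference in Trem2 went with the sex of the cells. In female-scored cells of the 6 clusters (1765 WT and 2230 iKD), Trem2 was at 19.1 in WT and 14.7 in iKD, a ratio of −0.38 (−0.40 to −0.35). In male-scored cells (1686 WT and 918 iKD) it was at 17.6 and 18.5, a ratio of 0.07 (0.04 to 0.10). Trem2 was the 1 member called in female cells, where 2.45% of 3884 genes were lower by the limit and 2.03% higher, and 0 members were called in male cells, where 5.01% of 3934 genes were lower and 3.15% higher.

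**Figure D5:**
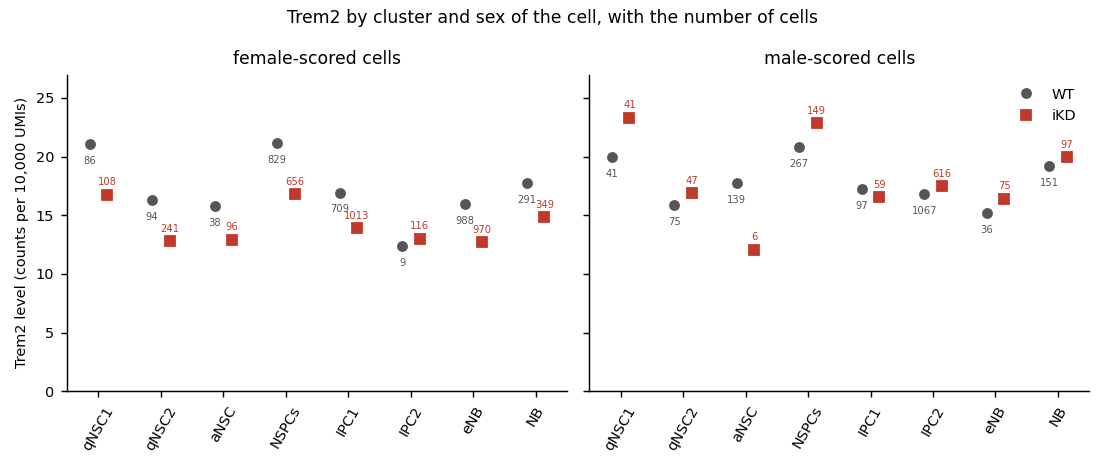
Trem2 level (y axis, mean counts per 10,000 UMIs) by cluster (x axis) in female-scored cells (left) and male-scored cells (right) of the WT (grey circles) and iKD (red squares) libraries, with the number of cells beside each point. Among female-scored cells the iKD level is the lower 1 in every cluster except IPC2, which has 9 WT cells, and among male-scored cells it is the higher 1 in 6 of 8.

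In the clusters with the most Trem2, the female cells of the iKD library stood apart from the other 3 kinds of cell. In NSPCs Trem2 was at 21.2 in female and 20.8 in male WT cells, and at 16.8 in female and 22.9 in male iKD cells. In qNSC1 the female cells were at 21.1 and 16.7, and the male cells at 20.002 and 23.3. In female cells Trem2 was lower in iKD in 7 of 8 clusters, with every interval of the 7 below 0. In male cells it was higher in 6 of 8, with the interval above 0 in 3. It was lower in the other 2, with the interval below 0 in 1. The ratios by cluster ran from −0.35 to 0.07 in female cells and from −0.55 to 0.22 in male cells. The study's methods state that the sexes were about equally represented throughout and combined, but the number of each in these pools is not given in the sources used here, so the female mice of a pool, their sex and the genotype cannot be told apart. Other members followed in part: Cd9 was at 9.33 in WT and 8.29 in iKD female cells (−0.17, −0.21 to −0.14) and at 8.02 and 8.19 in male cells, and Tyrobp had −0.06 and 0.03. For Apoe the ratio was 0.02 among females and 0.19 among males.

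The rest of the pathway was close between the genotypes. Of the 24 other DAM genes, 16 reached the minimum level and 0 were called in all cells of the 6 clusters: 8 were below 0 and the median ratio was 0.00055. The most negative was Cd52, a small surface glycoprotein, at 1.68 in WT and 1.43 in iKD (−0.23), and the most positive Lyz2 at 1.02 and 1.15 (0.17). In female cells 15 of the 16 were below 0, none past the limit (median −0.07), while 4 were among male cells, with Cd52 called lower and the chemokine Ccl6 called higher. Of all genes, 44.1% were below 0 in female and 45.9% in male cells. The homeostatic genes lay the same way in female cells, with 10 of 12 below 0, a median of −0.08, and Fcrls, an Fc receptor-like gene, called lower (−0.29). Of 17 genes of TREM2 signalling, 15 reached the minimum level and 0 were called in all cells, from Pik3r1, the regulatory subunit of PI3 kinase, at 7.38 and 6.32 (−0.22) to Vav1 at 2.20 and 2.39 (0.12). Pik3r1 was called lower in male cells, at 8.33 and 6.10 (−0.45). Of 13 genes of APOE receptors and lipid handling, 5 reached the minimum level, 4 were below 0 and 0 were called, among them the receptor Lrp1 (0.14) and the lipid exporter Abca1 (−0.13).

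Across the 16 combinations of 8 clusters and 2 genotypes, the genes whose log2 levels followed Trem2 most closely among 3850 were Cct7 (Pearson r = 0.89), Lag3 (0.89), Pcbp1 (0.89), Tmco1 (0.88) and Tuba1b (0.88). Tyrobp followed it with 0.69 and Apoe with −0.010. The genes closest to Apoe were Lyz2 (0.95), Cd48 (0.93), Slc11a1 (0.91), Rtn4 (0.90) and Cd74 (0.90), ahead of Axl (0.79) and Lpl (0.76). The 16 points share 2 libraries, so these values describe likeness of level only.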

How the data were processed

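EYFP+ cells of 1 WT and 1 iKD library were analysed. The authors deposited 12 tables, 1 per cluster, of natural log values: the log of 1 plus a cell's counts per 10,000 UMIs. Per the study's methods, Cell Ranger 7.0.1 aligned and deduplicated the reads, and Seurat 4.1.1 dropped cells by gene number and mitochondrial share, normalized, integrated and clustered them. The submitters' notes also name CASAVA 1.8.2, HISAT2 2.0.6, Subread and featureCounts, and a human build (GRCh38), although the symbols are those of mouse. UMI counts were recovered here from the natural log values, and 100% of the 32261786 values above 0 came out whole, within 0.01. Totals were 44142118 UMIs over 5543 WT cells (1520 to 11996 per cell) and 37451839 over 5261 iKD cells (1471 to 11998). All deposited cells were kept, 0 columns were left unused, and no doublet caller was run, since the methods' gene-number limits were set against multiplets.

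Ratios are log2 of iKD over WT levels, each plus 0.01, over the 6 clusters the study compared. A gene was called where the ratio reached 0.25 in size with its counting interval on 1 side of 0, if the level reached 0.5 in either genotype. Intervals are exact at 95% (Poisson for UMIs, Clopper-Pearson binomial for shares, the binomial split of summed UMIs for ratios) and cover counting error only; a count of 0 is given a limit of 3. Cells were scored female by Xist without Ddx3y, Eif2s3y, Uty or Kdm5d, and male by the reverse. Shares compared across depths used cells thinned to 4500 UMIs, which left 5184 (WT) and 4769 (iKD) in the 8 clusters. With 1 library per genotype, no p-value was computed. The members and the gene lists were chosen with earlier results of these data known. Named genes are all members, up to 4 of each list with the largest ratios, and the 5 genes most like Trem2 and Apoe. The other genes named were chosen after their values were seen. Gene starts came from GENCODE and promoter sequences from RefSeq. In simulated data of 32285 genes for this comparison, the direction was right for 200 of 200 changed genes, and 194 true ratios lay within the interval. The simulated cells were Poisson draws from the mean WT profile, without variation between cells or mice. The changed genes all had a WT level of at least 0.5. The simulation therefore checks the computation under counting error only, and does not cover Cst7, Lpl, Spp1, Itgax and Axl. Python 3.11.15, numpy 2.4.6, scipy 1.17.1, pandas 2.3.3 and matplotlib 3.10.9 were used.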

Additional observations from a re-analysis of the deposited data

Results flagged for a closer look

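The genotype difference of the sensor pair had opposite signs in the cells of each sex over the 6 clusters from qNSC1 to IPC2. Trem2, the lipid receptor, had a log2 ratio of iKD over WT of −0.38 in female-scored cells and 0.072 in male-scored cells. Tyrobp, its adaptor, had −0.058 and 0.034. The difference between the sexes was not tested, because each library holds 1 pool of mice and cells are not replicates.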

How the results depend on the processing

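Over the 6 clusters, 0 members were called and 5 of the 9 were lower in iKD, with genes under the minimum level included. Of all genes at that level, 1.86% were called lower, 0.751% higher, and 45.1% were below 0. Among female cells 1 member was called (Trem2, −0.38), beside 2.45% of genes called lower and 2.03% higher. Without cells with 2 or more UMIs of border macrophage markers, 41.8% of the cells, 1 was called (Apoe, 0.36). Again 1 was called (Apoe, 0.26) when Stab1 was left out of those markers, which removed 0.879% of cells. Among male cells 2 members were lower (Spp1 and Axl), beside 45.9% of all genes. By the mean of the 6 ratios within clusters 8 were lower. The share of all genes was not counted for that mean or for the settings without macrophage markers. The share of cells with 3 or more of the 5 genes differed by −0.0075 percentage points, on 8 of 5184 WT and 7 of 4769 iKD cells. It differed by 0.136 in male cells (1 of 1842 and 2 of 1049) and by −1.22 within qNSC1 (6 of 133 and 5 of 152). When 2 or more genes were asked for, the difference was 0.173 (28 and 34 cells). The WT and iKD intervals overlapped in each of these settings. The settings within qNSC1 and without Stab1 were added after the data were seen. The cause of the changes in calls and signs was not tested. Over 14 alternatives, among them summed UMIs, other pseudocounts, a denominator without Ttr, Xist and Y-linked genes, and cells of 1 sex, Apoe stayed above 0 (0.02 to 0.36) and Spp1 below 0 (−0.77 to −0.01), while the other 7 members took both signs. Trem2 was below 0 in 13 of 14, from −0.38 to −0.19, and at 0.07 in male cells. Leaving out cells with 10 or more UMIs of choroid plexus markers, or cells with 50 or more Apoe counts per 10,000, called no member and gave Trem2 at −0.19 and −0.20. No paired analysis was possible because each genotype has 1 library. Depth limits Cst7, Lpl, Spp1, Itgax and Axl, whose intervals over the 6 clusters all include 0.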

Other observations

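Nes, the gene whose promoter drives the Cre, had 77 UMIs in 52 WT cells and 76 UMIs in 46 iKD cells of the 8 clusters. Of these UMIs, 37 in WT and 40 in iKD were in qNSC1, the cluster with the highest Lpl, Cst7 and Itgax, where 15.7% of WT and 8.86% of iKD cells had one. The level of Nes was 0.320 in WT and 0.330 in iKD cells of qNSC1, against 0.00944 and 0.0107 over the other 7 clusters. The rest of the neural stem cell list did not share this placement. Of its 7 genes, 5 had at least 20 UMIs, and Nes was the only 1 of these higher in qNSC1 in both libraries. Over the 7 genes, the median share of qNSC1 cells with a UMI was 0 in WT and iKD, and 4 genes were at 0 in each library. The cluster named undefined, with 21 WT and 19 iKD cells and median depths of 2650 and 2500 UMIs, had Trem2 at 29.2 and 28.7 and Tyrobp at 45.6 and 46.9, above every other cluster, on a summed 171 and 138 UMIs of Trem2.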
